A study of Homo sapiens with 12 samples.

Results

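The chromosome 19 ZNF genes are the protein-coding genes of chromosome 19 whose symbol is ZNF followed by a number, and 218 of them were kept out of 60675 genes in the count files. A gene was kept when it reached 1 CPM (its count scaled by the total of its library) in at least 2 of the 12 libraries. Before that limit there were 247 such genes, so 29 were left out, of which 5 reached 1 CPM in a single library and the others in none. Just inside the limit stood ZNF728, whose second-highest library was at 1.02 CPM, and just outside stood ZNF534, at 0.939 CPM. Of the members, 59 lie on the short arm (19p) and 159 on the long arm (19q), and 183 reached 1 CPM in all 12 libraries.

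RNA was sequenced from human prostate cancer cell lines, namely LNCaP and its castration-resistant derivative LNCaP:C42 (C4-2 here), to follow inhibition of the histone demethylases KDM1A and KDM7A under androgen. All 12 libraries came from cells given R1881, a synthetic androgen, at 1 nM for 72 h in hormone-depleted medium with DMSO as vehicle, so no library shows the cells without androgen. C4-2 cells received R1881 alone, R1881 with namoline (the KDM1A inhibitor, 50 µM), R1881 with TCE-5002 (the KDM7A-selective inhibitor) or R1881 with both inhibitors (the combination). LNCaP cells received R1881 alone or the combination, with 2 biological replicates in each of the 6 groups. The series text gives 100 µM for TCE-5002 while the methods of the study name a lower concentration, and the treatment text of the labels describes siRNA work that no group name carries. The study states that TCE-5002 also targets the demethylases KDM7B (PHF8) and KDM2A. Its effects here therefore cannot be assigned to KDM7A alone.

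C2H2 zinc finger proteins read DNA through tandem fingers that each contact a few bases, and chromosome 19 holds the largest collection of them in the human genome, grown by repeated local duplication. Most carry a KRAB domain at their start, which binds TRIM28 and brings the histone methyltransferase SETDB1, heterochromatin protein 1 and histone deacetylases to the bound site. Many silence endogenous retroviruses and other transposable elements, and the ZNF genes themselves lie in chromatin rich in repressive histone methylation over their finger exons, which ZNF274 helps to place. KDM1A and KDM7A both remove methyl groups from histones, KDM1A as part of repressor complexes with RCOR1 and histone deacetylases and, with the androgen receptor, also as an activator.

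The members fell into 16 runs of neighbouring genes (clusters, split where starts lay more than 1 Mb apart), numbered from the tip of 19p to the tip of 19q. The largest were cluster 5 near the centromere on 19p (19.67 to 24.13 Mb, 24 members), cluster 9 (36.18 to 37.82 Mb, 27 members), cluster 12 (43.53 to 45.08 Mb, 24 members), cluster 15 (51.57 to 53.58 Mb, 37 members) and cluster 16 (55.48 to 58.48 Mb, 57 members) on 19q. Cluster 1 at the tip of 19p (2.82 to 2.94 Mb) holds the 4 members ZNF554, ZNF555, ZNF57 and ZNF77. In the coding sequences of the members the finger pattern occurred a median of 12 times, from 0 up to 31 in ZNF91. A strict letter pattern of the KRAB A box was found in 149 members. The other 69 include proteins such as ZNF350 that carry a KRAB domain with other letters, so the pattern undercounts. Member transcripts were long and poor in G and C, with a median GC content of 44.1% against 49.3% over all genes at the same CPM limit and 60.8% in the 828 other protein-coding genes of chromosome 19.

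The promoters of cluster 1 are shown because all its 4 members rose together under the combination in C4-2 cells, as described further on. The sequences are the 250 bases before the annotated start from RefSeq (build GRCh38.p14), 5′ to 3′ on the strand of the gene, with each CCAAT or its reverse complement ATTGG in capitals. The CCAAT box is the binding site of the trimeric factor NF-Y, and it was looked for after the letters of these promoters had been seen. ZNF554 lies at chr19:2819618-2819867, ZNF555 at chr19:2841225-2841474 and ZNF57 at chr19:2900678-2900927 on the plus strand, and ZNF77 at chr19:2944972-2945221 on the minus strand.
ZNF554: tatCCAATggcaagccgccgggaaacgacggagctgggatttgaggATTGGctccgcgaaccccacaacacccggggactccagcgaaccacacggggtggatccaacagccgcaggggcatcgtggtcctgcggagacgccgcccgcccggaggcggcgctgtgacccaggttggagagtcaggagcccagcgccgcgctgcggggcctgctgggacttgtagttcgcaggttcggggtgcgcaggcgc
ZNF555: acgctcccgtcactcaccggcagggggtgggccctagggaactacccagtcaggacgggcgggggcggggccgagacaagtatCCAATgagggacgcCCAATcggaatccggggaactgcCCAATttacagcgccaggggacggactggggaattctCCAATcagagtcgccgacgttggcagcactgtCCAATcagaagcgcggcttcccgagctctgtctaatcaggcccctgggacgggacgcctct
ZNF57: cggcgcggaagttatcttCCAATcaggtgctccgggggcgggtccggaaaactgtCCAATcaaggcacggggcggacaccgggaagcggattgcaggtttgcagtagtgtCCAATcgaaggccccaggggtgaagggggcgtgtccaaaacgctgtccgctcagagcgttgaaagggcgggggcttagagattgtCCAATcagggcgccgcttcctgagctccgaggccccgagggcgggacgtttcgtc
ZNF77: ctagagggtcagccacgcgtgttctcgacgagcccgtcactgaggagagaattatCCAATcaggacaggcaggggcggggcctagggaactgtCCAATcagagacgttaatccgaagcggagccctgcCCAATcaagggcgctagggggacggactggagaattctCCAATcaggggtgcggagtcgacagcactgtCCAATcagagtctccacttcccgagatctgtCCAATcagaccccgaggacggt
ZNF77 held 6 copies, ZNF555 held 5, ZNF57 held 4 and ZNF554 held 2, and a second annotated start of ZNF57 held 1. Among the 243 RefSeq promoters found for 192 members, 4.12% held 3 copies or more. The share was 2.93% over all 35116 promoters and 8.18% in those of the other protein-coding genes of chromosome 19. These shares were taken over 300 bases, from 250 before to 50 after the start, a longer stretch than the sequences shown.

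Over the 300 bases from 250 before to 50 after the start, the motif CCGGAAG of ETS factors, searched on both strands, occurred in 40.3% of member promoters. The share was 10.3% over all promoters, 29.9% in ZNF genes of other chromosomes and 15.9% in the other protein-coding genes of chromosome 19. GGGGCGGGG, the box bound by SP and KLF factors, occurred in 18.9% of member promoters and in 15.7% of all. The remaining motifs were rare in members, with GCGCATGCG (NRF1) in 3.70%, AAGATGGCG (YY1) in 3.29% and TGACGTCA (the cyclic AMP response element) in 4.12%, against 1.92%, 1.75% and 1.85% of all promoters. None of these motifs contains another, and a match is not evidence of binding.

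The files held 14791602 to 20690819 counts per library, of which members took 0.254% to 0.546%. Libraries labelled LNCaP departed from what is known of that epithelial line. The epithelial cadherin CDH1 stood at 42 CPM on average with R1881 there and at 977 CPM in C4-2 cells, while the mesenchymal filament VIM stood at 686 CPM and 2.45 CPM. The summed level of 10 luminal markers was 842 to 905 CPM in the LNCaP R1881 libraries and 3523 to 3653 CPM in those of C4-2, and that of 6 mesenchymal markers was 775 to 867 CPM against 79.8 to 81.4 CPM. CDH2 was under 1 CPM in all 4 C4-2 groups, ZEB1 in 3 of them and COL1A2 in all 6 groups, while COL1A1 ran the other way, at 50.1 CPM in C4-2 R1881 and 4.44 CPM in LNCaP R1881. Of the luminal list, KLK3, the gene of prostate-specific antigen, also ran the other way, at 376 CPM in LNCaP R1881 and 217 CPM in C4-2 R1881. All comparisons of the lines are therefore comparisons of libraries as labelled, and the part of this difference in them was not tested. In addition, the file of LNCaP combination replicate 1 names an input with namoline but without TCE-5002, so results on the LNCaP combination are also given without that library.

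Members were expressed at modest levels in every group. As RPKM, which divides CPM by the exon length in kilobases, the median member averaged 2.29 over the 12 libraries, from 0.0534 to 49.4. The most abundant per length was ZNF146, a protein made almost entirely of fingers, at 49.4 RPKM on average, followed by ZNF358 at 13.6 RPKM and ZNF121 at 13.3 RPKM. ZNF146 reached 84.2 RPKM in LNCaP R1881 and 66.8 RPKM in the LNCaP combination, against 33.2 to 41.6 RPKM in the 4 C4-2 groups. The summed level of all members was highest in the 2 LNCaP R1881 libraries, at 4989 and 5128 CPM. It was 3761 and 3950 CPM in the LNCaP combination, 3876 and 3906 CPM in the C4-2 combination, 3073 and 2943 CPM in C4-2 R1881, 2967 and 2769 CPM with TCE-5002 and 2792 and 2754 CPM with namoline. Thus the combination libraries lay above the R1881 libraries in C4-2 and below them in LNCaP, with no overlap between groups in either line, and the summed level of the C4-2 combination came to lie between the replicates of the LNCaP combination. ZNF genes of other chromosomes showed the same order in both lines. Their summed level was 8104 and 7919 CPM in C4-2 R1881 and 8988 and 9205 CPM in the C4-2 combination. It was 11816 and 11952 CPM in LNCaP R1881 and 8394 and 8448 CPM in the LNCaP combination.

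**Figure D1:**
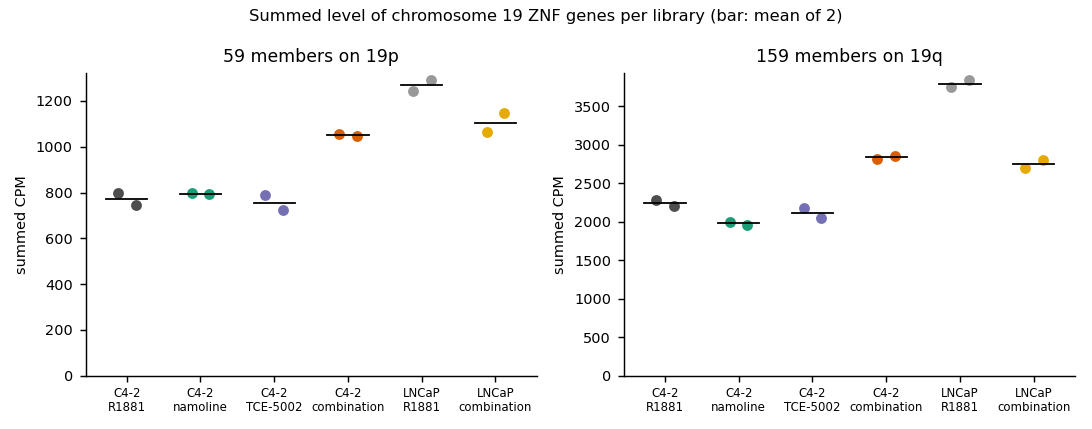
Summed level of the members in each library, in CPM (vertical axis, from 0), for the members on 19p (left) and on 19q (right), with 1 point per library and a bar at the mean of 2. On both arms the C4-2 combination libraries (mean 1052 CPM on 19p and 2839 CPM on 19q) lay above the other C4-2 libraries and the LNCaP combination libraries lay below LNCaP R1881.

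Without the 10 members of highest mean CPM, the combination libraries still lay above R1881 in C4-2 and below it in LNCaP, with 3051 and 3083 CPM in the C4-2 combination against 2416 and 2317 CPM in C4-2 R1881, and 2859 and 2962 CPM against 3859 and 3956 CPM in LNCaP. Both C4-2 combination libraries then stood above both of the LNCaP combination. Because these are bulk samples, fewer cells of a type and less RNA per cell cannot be told apart.

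The question put to each treatment was which genes change with namoline, TCE-5002 or both in androgen-treated C4-2 cells. A member is said to have risen or fallen when its adjusted p (edgeR quasi-likelihood test, Benjamini-Hochberg over all genes tested) was under 0.05, and fold changes are on the log2 scale with their standard error (SE). The 3 C4-2 comparisons share the same 2 R1881 libraries.

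Under the combination in C4-2 cells, 63 of 212 members tested rose and 37 fell, and the median member stood 0.17 higher. Over all 17702 genes tested, 24.8% rose and 25.6% fell, with a median of -0.03, so the share of members that rose (29.7%) was near the background and the share that fell (17.5%) below it. A change of at least 2-fold with adjusted p under 0.05 was seen in 24 members upwards and 10 downwards, and in 21.7% of all genes in either direction. ZNF genes of other chromosomes gave a like picture, with 32.1% risen, 22.8% fallen and a median of 0.17. On 19p 21 of 58 members rose and 7 fell (median 0.30), and on 19q 42 of 154 rose and 30 fell (median 0.08).

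Cluster 1 rose as a whole. ZNF554 (2819874 to 2835773), a KRAB protein with 7 fingers, was at 5.90 and 7.02 CPM in C4-2 R1881, 3.31 and 2.28 CPM with namoline, 5.54 and 6.16 CPM with TCE-5002 and 38.3 and 34.2 CPM with the combination. Both combination libraries stood far above the other 6, and the rise was 2.47 (SE 0.18, edgeR adjusted p = 1.31e-07). Its neighbour ZNF57 was at 9.18 and 6.82 CPM in C4-2 R1881, 9.76 and 9.41 CPM with namoline, 12 and 10.4 CPM with TCE-5002 and 26.2 and 27.2 CPM with the combination, a rise of 1.70 (SE 0.17, edgeR adjusted p = 2.29e-06). ZNF77, on the opposite strand at the far end of the cluster, was at 6.46 and 6.17 CPM in C4-2 R1881, 4.38 and 4.20 CPM with namoline, 5.44 and 4.12 CPM with TCE-5002 and 26.0 and 27.3 CPM with the combination, a rise of 2.05 (SE 0.17, edgeR adjusted p = 5.35e-07). In both genes the combination libraries lay above all 6 others without overlap.

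ZNF555 was far lower, at 0.468 and 0.325 CPM in C4-2 R1881, 0.414 and 0.107 CPM with TCE-5002 and 1.08 and 1.25 CPM with the combination. Its rise of 1.48 (SE 0.56, edgeR adjusted p = 0.04) therefore rests on few reads, and it is the member of the cluster whose call was lost under other settings. ZNF556, the fifth gene of the cluster and outside the expression limit, averaged 0.112 CPM with R1881 and 1.08 CPM with the combination, and is named here after its values were seen. The next protein-coding genes outside the cluster differed by less: THOP1, a peptidase gene on the side of ZNF554, was at 44.6 CPM with R1881 and 36.9 CPM with the combination (edgeR adjusted p = 0.0958), and TLE6, a co-repressor gene on the side of ZNF77, at 6.64 and 5.75 CPM (edgeR adjusted p = 0.425). Further out on the same sides SGTA (0.77, edgeR adjusted p = 0.000411) and GNA11 (0.66, edgeR adjusted p = 0.00252) rose. These neighbours were looked up for their position.

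**Figure D2:**
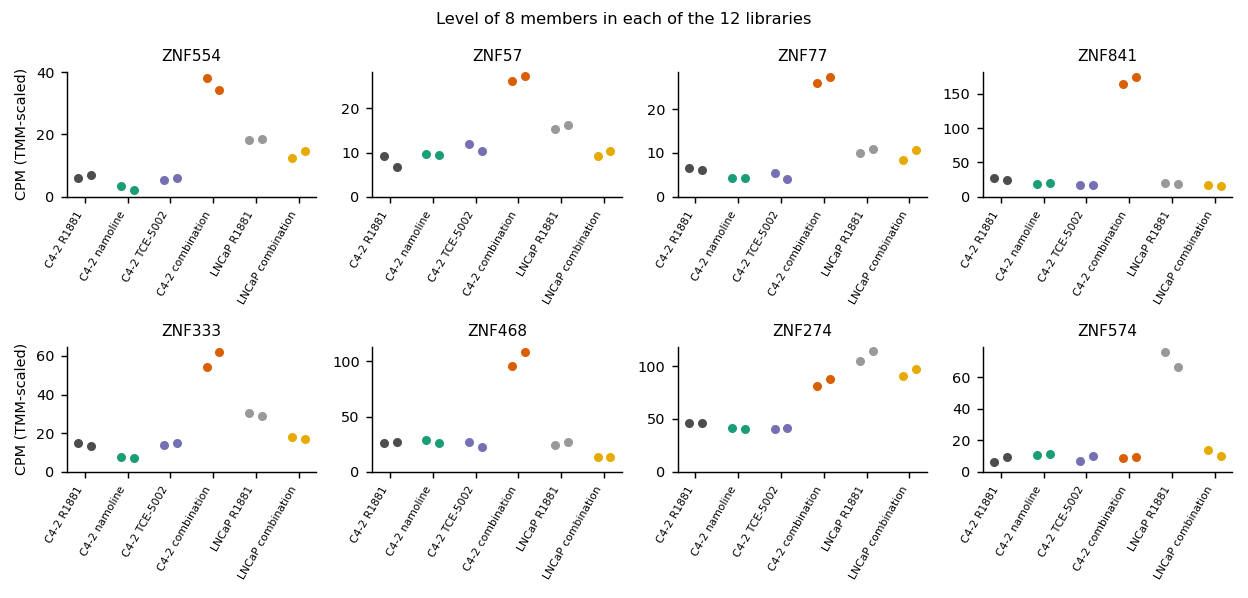
Level of 8 members in each of the 12 libraries, in TMM-scaled CPM (vertical axes, from 0), with 1 point per library by group. The 2 C4-2 combination points of ZNF554, ZNF57, ZNF77, ZNF841, ZNF333 and ZNF468 stood above all 10 other libraries, ZNF274 rose from 46.1 CPM to 81.1 and 87.4 CPM in C4-2, and ZNF574 stood at 75.9 and 66.8 CPM in LNCaP R1881 and at most at 13.8 CPM elsewhere.

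Cluster 15 held the largest number of rising members. There 20 of 36 members tested rose, 9 of them at least 2-fold, and 5 fell, with a median of 0.55. ZNF841, a KRAB protein with 20 fingers, was at 26.9 and 24 CPM in C4-2 R1881, 18.9 and 20.6 CPM with namoline, 16.6 and 17.1 CPM with TCE-5002 and 165 and 174 CPM with the combination. It had the largest rise among members, 2.70 (SE 0.12, edgeR adjusted p = 1.6e-09). ZNF468 was at 26.0 and 26.5 CPM in C4-2 R1881 and 95.7 and 108 CPM with the combination, with 22.0 to 28.4 CPM in the single treatments. Of the 100-base words of its longest transcript, 99.1% also occur in a transcript annotated to ZNF320, so counts of this pair are uncertain, although ZNF320 itself moved only from 32.0 and 30.9 CPM to 41.4 and 38.3 CPM. ZNF808, which binds primate-specific retroviral elements, rose from 19.9 and 18.7 CPM to 40.4 and 39.2 CPM (1.02, SE 0.14, edgeR adjusted p = 3.4e-05). ZNF350, a partner of BRCA1 that represses DNA damage genes, was at 13.1 and 11.7 CPM with R1881 and 21.2 and 25.5 CPM with the combination (rise 0.88, SE 0.18, edgeR adjusted p = 0.000774).

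Single members elsewhere also rose, ZNF333 the most of those described here. ZNF333, alone in its cluster on 19p, was at 14.7 and 13.3 CPM in C4-2 R1881, 7.39 and 7.25 CPM with namoline, 13.6 and 15.1 CPM with TCE-5002 and 54.1 and 61.9 CPM with the combination (rise 2.02, SE 0.14, edgeR adjusted p = 8.33e-08). Its exons overlap those of ADGRE2 and ADGRE3 on the other strand. ZNF473, which is needed for the processing of histone pre-mRNA, was at 14.6 and 15.7 CPM with R1881 and 44.4 and 45.4 CPM with the combination (rise 1.55, SE 0.14, edgeR adjusted p = 8.93e-07). ZNF274, the finger protein that binds the ends of other ZNF genes, was at 46.1 CPM in both R1881 libraries and at 81.1 and 87.4 CPM with the combination (rise 0.84, SE 0.11, edgeR adjusted p = 2.75e-05).

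The falls were smaller in level. ZNF836, also of cluster 15, was at 3.98 and 2.60 CPM with R1881 and 1.42 and 0.563 CPM with the combination (log2 change -1.75, SE 0.38, edgeR adjusted p = 0.0017). ZNF726 on 19p fell from 3.70 and 4.03 CPM to 1.42 and 1.25 CPM, ZNF132 from 6.60 and 5.33 CPM to 2.72 and 2.13 CPM, and ZNF471 from 5.85 and 5.78 CPM to 2.89 and 1.88 CPM. ZNF382, described as a tumour suppressor, was at 18 and 18.7 CPM with R1881 and 12.9 and 13.8 CPM with the combination (log2 change -0.48, SE 0.17, edgeR adjusted p = 0.0255), a call lost under 5 alternatives. Cluster 16, the largest, was divided, with 13 of 57 members risen and 13 fallen, and in cluster 12 1 of 23 rose and 4 fell.

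Among other known silencers of transposable elements, neither ZNF91 nor ZNF587 passed the test in this comparison. ZNF91, which holds down SVA elements, was at 22.0 and 16.6 CPM with R1881 and 19.2 and 16.5 CPM with the combination, and ZNF587, which binds HERV-K elements, at 27.3 and 26.6 CPM and 32.0 and 26.5 CPM. ZNF93, a silencer of LINE elements, rose from 1.78 and 2.14 CPM to 3.69 and 3.63 CPM (0.88, SE 0.28, edgeR adjusted p = 0.0154), a call lost under 3 alternatives.

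**Figure D3:**
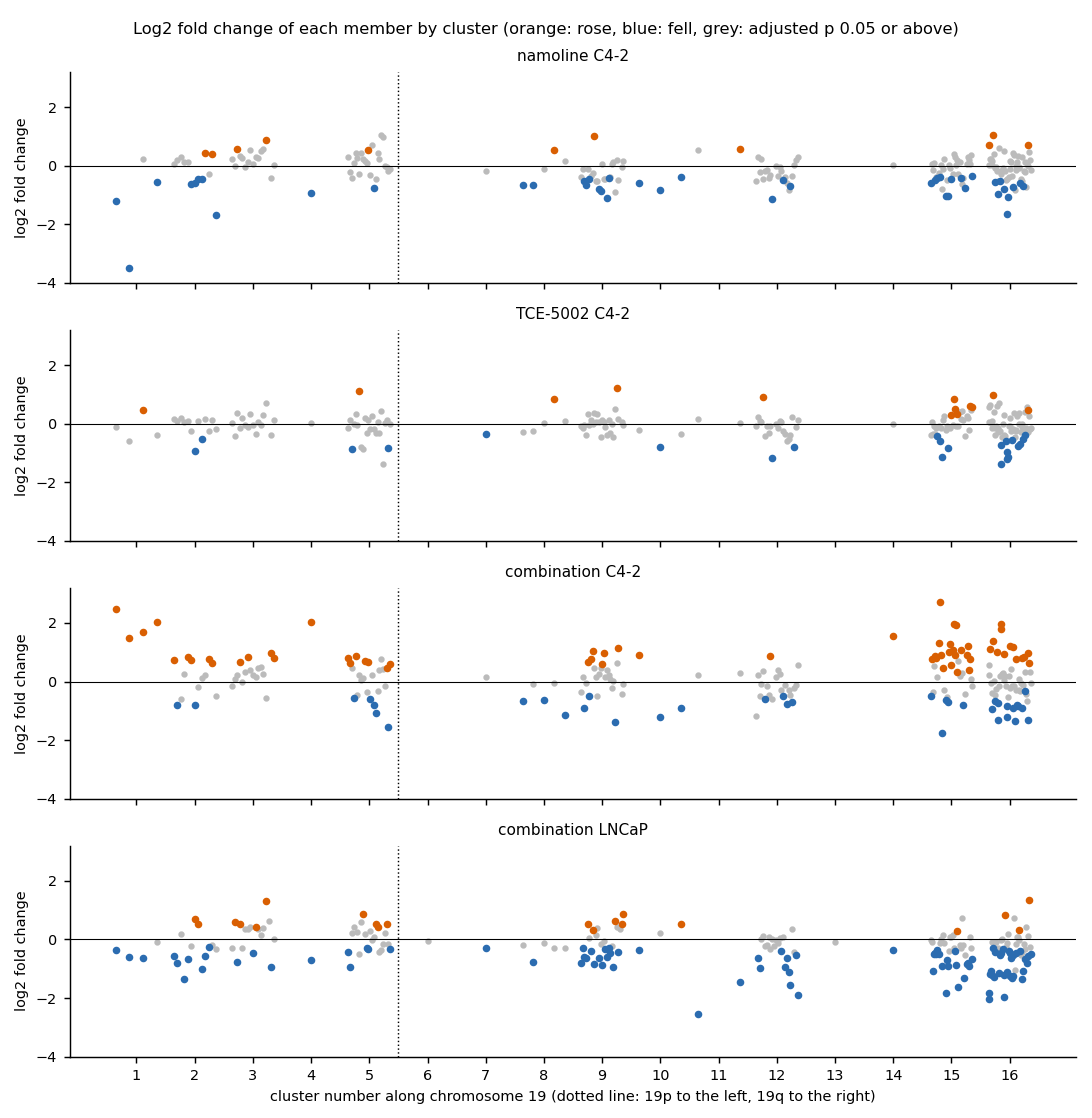
Log2 fold change (vertical axis) of each member, ordered by start within its cluster (horizontal axis, cluster number along chromosome 19, dotted line between the arms), in the 4 comparisons of treated with R1881 libraries. Orange points rose, blue points fell and grey points had an adjusted p of 0.05 or above, and under the combination in C4-2 all 4 points of cluster 1 and 20 of 36 in cluster 15 are orange, while in LNCaP 18 of 37 in cluster 15 are blue.

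Either inhibitor alone moved fewer members. With namoline, 11 of 212 members rose and 44 fell, with a median of -0.12, while 18.7% of all genes rose, 16.3% fell, and 12.1% passed both the test and a 2-fold change. Members therefore rose less often than the background (5.19%) and fell at a share close to it (20.8%), and 2 rose and 9 fell at least 2-fold. These counts were unstable: without C4-2 R1881 replicate 1 4 rose and 14 fell, without R1881 replicate 2 6 and 28, without namoline replicate 1 5 and 29, and without namoline replicate 2 3 and 17. The share of all genes called in those fits is not given here, so the drop cannot be read as a trait of the members. With all libraries the median was 0.13 on 19p and -0.18 on 19q. ZNF419 of cluster 16 fell from 30.2 and 25.3 CPM with R1881 to 8.87 and 9.05 CPM (-1.65, SE 0.16, edgeR adjusted p = 2.36e-06). ZNF846 fell from 2.76 and 2.21 CPM to 0.946 and 0.599 CPM, ZNF222 from 4.68 and 3.90 CPM to 2.01 and 1.92 CPM, and ZNF554 by 1.21 on the log2 scale (SE 0.22, edgeR adjusted p = 0.000651). Of cluster 1, 3 of 4 members fell, but the call of ZNF77 was lost under 6 alternatives and that of ZNF555 under 4, the latter resting on 0.0591 and 0 CPM with namoline.

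Among the members that rose with namoline, ZNF581, a short protein with 4 fingers, was at 6.46 and 6.43 CPM with R1881 and 13.1 and 14.1 CPM with namoline (1.06, SE 0.16, edgeR adjusted p = 0.000189). It overlaps ZNF580 and CCDC106 on the same strand. ZNF850, with 29 fingers, was at 2.9 and 4.55 CPM and then 6.98 and 8.03 CPM, ZNF443 at 2.06 and 1.69 CPM and then 2.9 and 4.08 CPM, and ZNF628, whose transcripts are 70.8% GC, at 9.55 and 11.0 CPM and then 15.2 and 18.5 CPM. The call of ZNF628 was lost under 6 alternatives, that of ZNF443 under 4 and that of ZNF850 under 2.

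With TCE-5002, 13 of 212 members rose and 23 fell, with a median of -0.07, against 19.9% of all genes risen, 16.7% fallen and 11.8% past both the test and a 2-fold change. Members were thus called less often than the background in both directions (6.13% and 10.8%), and 2 rose and 5 fell at least 2-fold. Without C4-2 R1881 replicate 1 10 rose and 11 fell, without R1881 replicate 2 6 and 15, and without TCE-5002 replicate 1 19 and 47. For these fits too the share of all genes is not given. With all libraries, ZNF genes of other chromosomes fell in 25.4% and rose in 5.80%. In cluster 16 11 of 57 members (19.3%) fell, a share near the background, among them ZNF772, ZNF773 and ZNF460. ZNF772 fell from 21.7 and 24.2 CPM to 11.5 and 8.14 CPM (-1.22, SE 0.18, edgeR adjusted p = 0.000164), ZNF773 from 17.2 and 14.7 CPM to 8.65 and 5.73 CPM and ZNF460 from 5.24 and 5.46 CPM to 1.45 and 2.68 CPM. ZNF222 stood at 1.92 and 1.87 CPM. In each the groups did not overlap, as the rule for naming members required. Rises were seen in ZNF540, from 0.702 and 1.36 CPM to 2.38 and 2.30 CPM, in ZNF737, from 3.42 and 2.79 CPM to 7.56 and 6.05 CPM, in ZNF404, from 2.86 and 2.34 CPM to 4.71 and 5.09 CPM, and in ZNF581, to 11.8 and 13.4 CPM. ZNF331, an imprinted gene of cluster 15, rose from 31.0 and 28.2 CPM to 44.0 and 43.6 CPM (0.56, SE 0.13, edgeR adjusted p = 0.00368). The replicates of TCE-5002 differed from each other by GC content more than those of any other group, as given below with the GC trend.

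The interaction asks whether the combination differed from the sum of the log2 effects of the single inhibitors. It was positive in 69 of 212 members and negative in 18, with a median of 0.36, whereas over all genes it was positive in 25.6%, negative in 27.9% and past both the test and a 2-fold size in 35.3%. The members' shares were 32.5% and 8.49%, and 42 positive and 10 negative values were at least 2-fold in size. The other ZNF genes had 44.6% positive and 10.3% negative. By GC content of transcripts, members of 40% to 45% had a median of 0.41 beside 0.24 over all genes of that range. Those under 40% had -0.04 beside 0.33. All 4 members of cluster 1 were positive, with ZNF554 at 3.82 (SE 0.28, edgeR adjusted p = 6.76e-08) and ZNF77 at 3.03 (SE 0.26, edgeR adjusted p = 3.2e-07). ZNF841 had 3.69 (SE 0.17, edgeR adjusted p = 2.21e-09) and ZNF460 had 3.60 (SE 0.40, edgeR adjusted p = 3.8e-06), the latter with 23.9 and 18.2 CPM in the combination. In 16 of 36 members of cluster 15 and 10 of 26 of cluster 9 the interaction was positive. Of the negative members, ZNF30 stood higher with either inhibitor than with the combination, at 18.5 and 16.5 CPM with namoline, 22.1 and 21.2 CPM with TCE-5002 and 11.6 and 11.9 CPM with the combination, against 11.1 and 13.1 CPM with R1881 (-1.43, SE 0.21, edgeR adjusted p = 5.49e-05). ZNF443 (-2.13), ZNF71 (-1.44) and ZNF792 (-1.39) were the other negative ones named by size, and the call of ZNF71 was lost under 7 alternatives. In ZNF792 the single treatments stood at 4.97 to 6.45 CPM and the combination at 2.5 and 2.13 CPM.

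**Figure D4:**
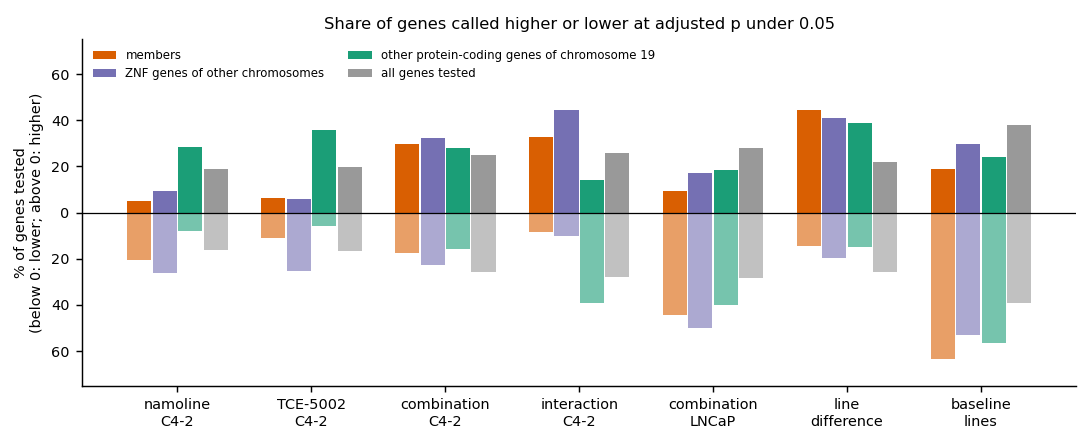
Share of genes called higher (above 0) or lower (below 0, paler) at adjusted p under 0.05, in percent of genes tested (vertical axis), for the members, ZNF genes of other chromosomes, other protein-coding genes of chromosome 19 and all genes, in the 7 comparisons. Members were lower in 44.4% under the LNCaP combination and 63.3% in C4-2 R1881 against LNCaP R1881, where all genes were lower in 28.2% and 39%.

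With both inhibitors, 96 of 216 members fell and 20 rose in libraries labelled LNCaP, with a median of -0.30. Over all 17565 genes tested in those libraries, 28.2% fell, 28% rose and 18.7% passed both the test and a 2-fold change, so members fell more often (44.4%) and rose less often (9.26%) than the background, and 26 fell and 2 rose at least 2-fold. ZNF genes of other chromosomes fell in 50.2% and rose in 17.0%, and other protein-coding genes of chromosome 19 in 40.2% and 18.5%. The latter are GC-rich, with a median of 60.8% GC, and all genes of 60% GC and above had a median of -0.51 here. With the GC correction described below that median was 0.04. The part of GC content in the share of these genes was not tested. On 19q 77 of 158 members fell (median -0.33) and on 19p 19 of 58 (median -0.12). Without LNCaP combination replicate 1, 83 members fell and 24 rose, and 100 of the 116 calls kept their direction and their call.

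Of the 4 largest falls, 3 were in GC-rich members of 19q without the KRAB pattern. ZNF574 was at 75.9 and 66.8 CPM in LNCaP R1881 and 13.8 and 9.69 CPM in the combination (-2.55, SE 0.14, edgeR adjusted p = 8.63e-16). ZNF579 fell from 82.9 and 82.1 CPM to 23.0 and 16 CPM (-2.03, SE 0.13, edgeR adjusted p = 4.76e-14) and ZNF296 from 9.35 and 8.23 CPM to 2.72 and 1.83 CPM. Their transcripts are 61.5%, 64.5% and 67.6% GC. ZNF547, at 44.7% GC and with a KRAB box, fell from 9.07 and 9.55 CPM to 2.18 and 2.38 CPM (-1.96, SE 0.23, edgeR adjusted p = 1.22e-08). In cluster 16 30 of 57 members fell and 3 rose, in cluster 15 18 of 37 fell and 1 rose, and in cluster 9 14 of 27 fell and 5 rose. In cluster 3 (11.48 to 12.64 Mb on 19p) 4 of 17 rose and 3 fell, with a median of 0.37.

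Rises in LNCaP were led by ZNF324B, from 5.12 and 5.78 CPM to 15.3 and 11.4 CPM (1.35, SE 0.19, edgeR adjusted p = 3.66e-07), and ZNF443, from 2.65 and 1.68 CPM to 4.6 and 5.83 CPM (1.33, SE 0.28, edgeR adjusted p = 0.000147). ZNF324B shares 10.8% of its 100-base words with ZNF324, so part of its count is uncertain. ZNF573 rose from 7.12 and 6.60 CPM to 11.3 and 12.9 CPM, and ZNF85 from 4.75 and 4.28 CPM to 7.87 and 7.96 CPM. ZNF675, an inhibitor of TRAF6 signalling, rose from 13.4 and 16 CPM to 18 and 22.4 CPM (0.52, SE 0.15, edgeR adjusted p = 0.00411), a call lost under 4 alternatives, while ZNF331 fell from 45.7 and 34.9 CPM to 22.6 and 26.2 CPM (-0.66, SE 0.13, edgeR adjusted p = 9.35e-05).

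Whether the combination acted differently in the lines was tested as the difference of its log2 effects, C4-2 minus LNCaP, on the 8 R1881 and combination libraries. The difference was positive in 97 of 218 members (44.5%) and negative in 32 (14.7%), with a median of 0.42, against 21.7% positive, 25.9% negative and 25.3% past both the test and a 2-fold size over 19763 genes, whose median was -0.10. It was at least 2-fold in size in 52 positive and 10 negative members. Without LNCaP combination replicate 1 it was positive in 92 and negative in 34. The share of all genes in that fit is not given here. With all 8 libraries the other ZNF genes had 41.2% positive and 19.7% negative, and other protein-coding genes of chromosome 19 38.6% and 15%. All genes of 60% GC and above, the range of many of the latter, had a median difference of 0.41, and -0.11 with the GC correction. All 4 members of cluster 1 and 24 of 37 in cluster 15 were positive.

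ZNF547 (2.85, SE 0.38), ZNF554 (2.80, SE 0.20), ZNF841 (2.77, SE 0.15) and ZNF468 (2.75, SE 0.15) had the largest positive differences. ZNF841 was at 19.5 and 18.4 CPM in LNCaP R1881 and 17.3 and 16.4 CPM in the LNCaP combination, and ZNF468 fell there from 24.2 and 27.1 CPM to 13.6 and 13.5 CPM. In cluster 1, ZNF554 went from 18.2 and 18.6 CPM to 12.4 and 14.8 CPM, ZNF57 from 15.3 and 16.3 CPM to 9.14 and 10.4 CPM, ZNF555 from 13.5 and 15.7 CPM to 9.93 and 8.72 CPM and ZNF77 from 10.1 and 10.8 CPM to 8.30 and 10.7 CPM. Negative differences were led by ZNF793 (-2.08, SE 0.45), at 9.68 and 9.6 CPM in LNCaP R1881 and 12 and 16.4 CPM in the LNCaP combination but 1.5 and 1.10 CPM and then 0.511 and 0.50 CPM in C4-2, and by ZNF443 (-1.94), ZNF429 (-1.64) and ZNF559 (-1.54). ZNF559 was at 26.8 and 24.9 CPM and then 14.6 and 15.7 CPM in C4-2, and at 22.1 and 17.0 CPM and then 28.8 and 31.7 CPM in LNCaP.

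These comparisons have separate controls, and of 210 members tested in both, 31 rose in C4-2 and fell in LNCaP, which is 50.0% of the 62 that rose and 32.6% of the 95 that fell. Of all 210, 45.2% fell in LNCaP, so the risers of C4-2 fell there at a share near that of the members as a whole. Over 15283 genes tested in both, 1047 did so, or 26.4% of the genes that rose in C4-2. A further 6 members rose in both lines and 11 fell in both.

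Under R1881 alone, C4-2 libraries were lower than those labelled LNCaP for 138 of 218 members (63.3%) and higher for 41 (18.8%), with a median of -0.79. Over all genes, 39% were lower, 37.8% higher and 50.5% past both the test and a 2-fold difference, and 90 members were lower and 19 higher by at least 2-fold. Some members passed the 1 CPM limit through the libraries of a single line, such as ZNF536 in LNCaP and ZNF93 in C4-2. Their direction here followed from that limit. The median was -0.39 for ZNF genes of other chromosomes and -0.49 for the other protein-coding genes of chromosome 19. In cluster 9 24 of 27 members were lower and 0 higher, and in cluster 12 19 of 24 were lower and 3 higher. Cluster 15 was the exception among the large ones, with 16 of 37 members higher and 11 lower and a median of 0.20.

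ZNF536, a regulator of neuronal differentiation, was at 13.4 and 15.9 CPM in LNCaP R1881 and 0.281 and 0.0650 CPM in C4-2, and was listed at 0 in all 4 libraries with a single inhibitor. It passed the 1 CPM limit only through libraries labelled LNCaP, so its lower level in C4-2 followed from that limit. ZNF114 was at 4.14 and 3.87 CPM in LNCaP and 0.140 and 0 CPM in C4-2, and ZNF555 at 13.5 and 15.7 CPM against 0.468 and 0.325 CPM. ZNF724 was at 17.2 and 16.9 CPM against 0.796 and 0.715 CPM (-4.44, SE 0.25, edgeR adjusted p = 7.65e-14). In the other direction ZNF544 was at 61.2 and 64.5 CPM in C4-2 and 3.21 and 4.41 CPM in LNCaP (4.07, SE 0.15, edgeR adjusted p = 1.37e-17), ZNF229 at 17.0 and 18.5 CPM against 1.16 and 1.5 CPM, ZNF682 at 9.64 and 8.31 CPM against 0.884 and 0.546 CPM, and ZNF600 at 10.8 and 9.16 CPM against 1.16 and 1.23 CPM. ZNF682 met the limit of 1 CPM in 2 libraries only through C4-2. The combination in turn took ZNF600 to 37.9 and 41.0 CPM in C4-2 and left it at 0.787 and 1.07 CPM in LNCaP.

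The proteins with known targets were divided between the lines. ZNF808 was at 19.9 and 18.7 CPM in C4-2 R1881 and 5.68 and 5.91 CPM in LNCaP R1881 (1.77, SE 0.14, edgeR adjusted p = 3.64e-11), and ZNF93 was higher in C4-2 by 2.32 (SE 0.41, edgeR adjusted p = 1.76e-05). ZNF93 passed the 1 CPM limit only through C4-2 libraries, so its direction followed from that limit. ZNF649, another binder of LINE elements, was at 4.87 and 4.09 CPM against 19.8 and 17.7 CPM (-2.02, SE 0.18, edgeR adjusted p = 4.43e-10), and ZNF91, at 31.2 and 33.3 CPM in LNCaP, was lower in C4-2 by 0.70 on the log2 scale. ZNF417, a close relative of ZNF587 with which it shares 24.1% of its 100-base words, was at 11.9 and 11.1 CPM against 22.0 and 19.6 CPM. ZNF224, a repressor of the aldolase A gene, was at 10.3 and 9.68 CPM against 19.5 and 17.1 CPM.

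Members with and without the KRAB pattern differed in their counts. Under the LNCaP combination 55 of 148 with it (37.2%) and 41 of 68 without it (60.3%) fell, where 28.2% of all genes did. Under the C4-2 combination 49 of 146 with it (33.6%) and 14 of 66 without it (21.2%) rose, against 24.8% of all genes. At baseline 87 of 149 with it (58.4%) and 51 of 69 without it (73.9%) were lower in C4-2, against 39% of all genes. GC-rich members such as ZNF574, ZNF358 and ZNF414 lack the pattern. Of the 20 members of 60% GC and above, 14 fell under the LNCaP combination, and 7 with the GC correction described below. The difference between these lists was not tested, nor was the part of GC content in it.

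The 23 genes listed as machinery that zinc finger repressors use, KDM1A and RCOR1 among them, were all tested. Under the C4-2 combination 6 rose and 5 fell (26.1% and 21.7%, near the 24.8% and 25.6% of all genes). SETDB1, the methyltransferase brought by TRIM28, rose from 51.8 and 54.6 CPM with R1881 to 85.0 and 90.9 CPM with the combination. TRIM28, the co-repressor that KRAB domains bind, stood at 163 and 179 CPM with R1881 and 191 and 216 CPM with the combination and did not pass the test. With namoline TRIM28 rose to 235 and 277 CPM (edgeR adjusted p = 0.00314). With namoline 11 of the 23 (47.8%) rose and 1 fell, where 18.7% of all genes rose, and with TCE-5002 5 rose (21.7%) and 3 fell (13.0%), near the 19.9% and 16.7% of all genes. Under the LNCaP combination 12 rose (52.2%, against 28% of all genes) and 2 fell (8.70%, against 28.2%). TRIM28 was among those that rose, from 263 and 279 CPM to 390 and 324 CPM (edgeR adjusted p = 0.000669). SETDB1 was among those that fell, from 116 and 116 CPM to 81.3 and 88.4 CPM. KDM1A itself was at 75.1 and 74.2 CPM in C4-2 R1881, 115 and 128 CPM with namoline and 72.5 and 74.0 CPM with the combination. At baseline 14 of the 23 (60.9%) were lower in C4-2 and 8 (34.8%) higher, against 39% and 37.8% of all genes.

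The GC content of transcripts moved with several of these results. In genes of at least 5 CPM, the median deviation of genes under 45% GC minus that of genes at or above 55% GC was -0.64 in TCE-5002 replicate 2 and -0.007 in replicate 1, -0.16 and -0.35 with namoline, 0.16 and -0.02 in C4-2 R1881, and 0.03 and -0.03 in the C4-2 combination. It was -0.09 and -0.01 in LNCaP R1881 and 0.39 and 0.69 in the LNCaP combination. The libraries of the C4-2 combination were thus close to even in GC, 3 of the 4 with a single inhibitor leaned towards GC-rich genes and those of the LNCaP combination towards GC-poor genes. Within groups, the difference of replicates 1 and 2 had a rank correlation across genes with GC of -0.78 with TCE-5002, -0.51 in C4-2 R1881, -0.45 with namoline, -0.21 in the C4-2 combination, 0.18 in LNCaP R1881 and 0.59 in the LNCaP combination. Genes are not independent replicates, so these describe the libraries.

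In the fold changes, genes under 40% GC had a median of 0.30 under the LNCaP combination and those of 60% and above had -0.51. Members under 40% GC stood at 0.24, close to all genes, and those from 40% upwards below the trend, with medians of -0.28 in the 103 members of 40% to 45% GC and -0.38 in the 59 of 45% to 50%, where all genes had 0.24 and 0.10, and -0.81 in the 20 of 60% and above. For the interaction, members under 40% GC had a median of -0.04 and those of 60% and above -0.40. Members of 40% to 45% had 0.41 beside 0.24 over all genes, and those of 45% to 50% 0.64 beside 0.10. The interaction had the steepest trend, from 0.33 to -0.55 over all genes. With TCE-5002 the same ends of the range stood at -0.15 and 0.30, and with namoline at -0.16 and 0.23, where members of 40% to 45% GC had -0.06 and -0.14 beside -0.11 and -0.10 over all genes. Under the C4-2 combination all bins of all genes lay between -0.07 and 0.01, and the 102 members of 40% to 45% GC had 0.22.

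**Figure D5:**
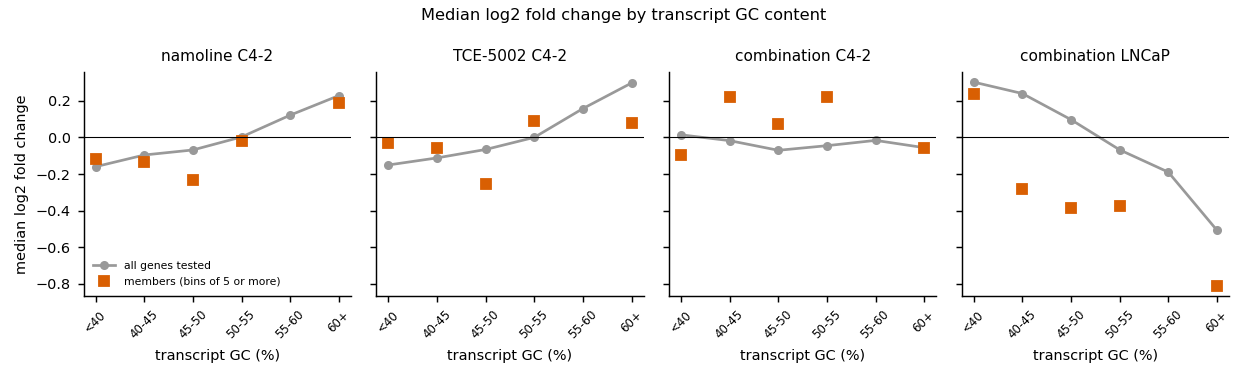
Median log2 fold change (vertical axis) of all genes tested (grey line) and of members (orange squares, bins of at least 5 members) by GC content of their transcripts (horizontal axis, percent) in the 4 comparisons of treated with R1881 libraries. The members lay below the line under the LNCaP combination from 40% GC upwards, as in the bin of 40% to 45% with -0.28 against 0.24.

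When a smooth trend of GC was removed within the fit, 110 members fell and 14 rose under the LNCaP combination (median -0.43) and 71 rose and 48 fell under the C4-2 combination. The 20 members of 60% GC and above, among them ZNF574, ZNF579 and ZNF296, then had a median of -0.0006 under the LNCaP combination in place of -0.81, and 7 of them fell in place of 14. The interaction was positive in 87 members and negative in 21, and of the 21 members of 60% GC and above 9 were positive and 0 negative, in place of 0 and 6. The difference between the lines was then positive in 107 and negative in 24. With TCE-5002 21 rose and 44 fell, and with namoline 20 rose and 60 fell, so counts of the single inhibitors depended on the correction more than those of the combination did. The share of all genes called with the correction is not given here, so these counts describe the members only. In the bin of 40% to 45% GC, corrected medians under the LNCaP combination were -0.48 in members and 0.007 over all genes. Under the C4-2 combination they were 0.22 and -0.01.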

How the data were processed

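RNA sequencing of 12 libraries was used. The deposited values are raw counts per gene that the authors made with featureCounts 1.5.0-p1 on paired reads with the Ensembl 83 annotation of GRCh38, per the file headers, after trimming (Trim Galore, cutadapt) and STAR alignment named in the submitters' processing notes. No strand option appears in the header, so exons overlapping on opposite strands (71 members) cannot be separated, and 12 members share 10% or more of 100-base words with another ZNF-named gene.

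Counts were filtered (filterByExpr), TMM-scaled and tested with edgeR 4.0.16 in R 4.3.3 (quasi-likelihood F test, Benjamini-Hochberg over all genes tested). The C4-2 comparisons were fitted on its 8 libraries, the LNCaP combination on its 4, and line comparisons on the 8 R1881 and combination libraries. SE is the fold change over the root of F. CPM are TMM-scaled except in the membership rule. Symbols, GC content and coding sequences came from GENCODE 29 (same build) and current symbol tables. The fitting script was checked on simulated data. With 2 replicates per group the depth gives counting precision only, and p-values rest on that spread. Members and lists were chosen with earlier results of these data known. Genes named are 13 with known roles, up to 4 rising and 4 falling per comparison (largest change, adjusted p under 0.05, at least 2 CPM in the higher group, groups not overlapping where 2 groups are compared), the 3 of highest RPKM and those said to be named after their values. Alternatives were other scalings and tests, no filter, a replicate block, a GC correction, stricter limits and leaving out each library.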

Additional observations from a re-analysis of the deposited data

Results flagged for a closer look

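The effect of the combination differed between the lines in these members by the test of the difference itself (edgeR quasi-likelihood test, adjusted p under 0.05), given as the log2 effect in C4-2 minus that in LNCaP. Positive differences were 2.85 in ZNF547, 2.80 in ZNF554, 2.77 in ZNF841, 2.75 in ZNF468, 2.27 in ZNF57, 2.07 in ZNF77, 2.01 in ZNF555, 1.85 in ZNF473, 1.34 in ZNF808, 1.31 in ZNF350, 0.98 in ZNF649, 0.96 in ZNF274 and 0.45 in ZNF331. Negative differences were -2.08 in ZNF793, -1.94 in ZNF443, -1.64 in ZNF429, -1.54 in ZNF559 and -0.59 in ZNF382. In ZNF547 the larger part of the difference lay in the LNCaP libraries, which went from 9.07 and 9.55 CPM to 2.18 and 2.38 CPM, and in ZNF841 in the C4-2 libraries. The calls of ZNF331 and ZNF382 were lost under 5 and 6 of the alternatives. The libraries labelled LNCaP carry high VIM and low CDH1, and the part of that in these differences was not tested.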

How the results depend on the processing

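The number of members called (either direction) is given per comparison in the order namoline, TCE-5002 and combination in C4-2, interaction, combination in LNCaP, difference between lines, baseline, where it was 55, 36, 100, 87, 116, 129 and 179. With a 2-fold condition it was 11, 7, 34, 52, 28, 62 and 109, since fewer genes meet it. TCE-5002 rose to 65 both with the GC correction and with the GC correction and replicate block, and the cause was not tested. DESeq2 gave 40, 30, 85, 78, 90, 115 and 168. Leaving out each library in turn gave 18 to 34 for namoline, 21 to 66 for TCE-5002, 78 to 84 for the C4-2 combination, 64 to 114 for the interaction, 84 to 107 for LNCaP, 114 to 128 for the difference between lines and 163 to 167 at baseline. The namoline count fell to 18 without C4-2 R1881 replicate 1, 34 without R1881 replicate 2, 34 without namoline replicate 1 and 20 without namoline replicate 2. The TCE-5002 count was 21 without either R1881 replicate and 66 without TCE-5002 replicate 1. Fits that leave a group with 1 library assume that it varies like the others. The share of all genes called under each alternative is not given here, so these counts describe the members only. The labels do not say that replicate numbers mark a shared batch, and correlations of replicate differences between C4-2 groups ran from -0.03 to 0.39, with 5 of 6 above 0.1, and stood at 0.04 in LNCaP, so pairing was not established. With a replicate block the counts were 63, 48, 107, 99, 105, 124 and 175. Across the values of named members and of lists, 0 reversed under any alternative run. The members of 60% GC and above, which form no list of their own, are not covered by this. The median interaction of those members went from -0.40 to 0.29 with the GC correction. Over all genes of 60% GC and above it went from -0.55 to 0.14, and the median under the LNCaP combination from -0.51 to 0.04. Whether the medians of the other protein-coding genes of chromosome 19, at a median of 60.8% GC, changed sign is not given here. Members near the limit of 1 CPM rest on few counts.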
